A study of Homo sapiens with 12 samples.

Results

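The mammalian circadian clock is a loop of transcription factors, and 10 of its genes were followed here: BHLHE40, BHLHE41, PER1, PER2, CRY1, NR1D1, NR1D2, RORA, CLOCK and DBP. They were found by gene symbol among the 60664 genes of the count table, and all 10 were present and had enough counts to be tested in every comparison. The data are RNA-seq libraries of MDA-MB-231, a triple-negative human breast cancer line, with 4 libraries in each of 3 groups. WT cells were kept in normoxia, WT cells were kept for 24 h in hypoxia (a chamber at 1% O2, according to the methods), and CCAR2-/- cells, called CCAR2 KO below, were kept in normoxia. CCAR2 encodes DBC1, and the study asked what hypoxia and loss of DBC1 each change in these cells. The KO was made with a LentiCRISPR guide, and neither the labels nor the methods say whether the cells were a clone or a pool. Neither source gives a time of day or a synchronisation step, so the libraries give 1 level per culture and not a rhythm. The methods speak of biological replicates, 3 in one place and 2 in another, whereas the table holds 4 libraries per group, and the labels do not say that these came from separate cultures. The p-values therefore measure the spread between these libraries, some of which may be technical.

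In this loop, CLOCK pairs with BMAL1 (listed here as ARNTL) and binds E-boxes to activate the PER and CRY genes, whose proteins then block the pair. NR1D1 and NR1D2 (REV-ERB alpha and beta) repress ARNTL and the ROR receptors activate it, through a shared site. BHLHE40 and BHLHE41 (DEC1 and DEC2) are repressors that bind E-boxes too, and BHLHE40 is a known target of the hypoxia-inducible factors. DBP is an output activator at D-boxes, as are TEF and HLF, and NFIL3 represses the same sites. DBC1 is known as an inhibitor of the deacetylase SIRT1 and as a binding partner of REV-ERB alpha.

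The promoters of 6 members are shown, and these genes either rose in a comparison below or belong to a pair whose members differed. RORA also rose in a comparison below, but its window is not shown and is described after the sequences. Each sequence is a RefSeq window of 300 bases on GRCh38.p14, from 250 before to 50 after the annotated start, read 5′ to 3′ on the gene's strand. All 10 members matched, with 12 windows in all. Capitals mark, on either strand, the E-box CACGTG, the core ACGTG of the hypoxia response element, the D-box TTANGTAA and the ROR/REV-ERB core AGGTCA. The E-box contains ACGTG on both strands, so each E-box counts as a match of both.
BHLHE40, chr3:4979187-4979486, plus strand: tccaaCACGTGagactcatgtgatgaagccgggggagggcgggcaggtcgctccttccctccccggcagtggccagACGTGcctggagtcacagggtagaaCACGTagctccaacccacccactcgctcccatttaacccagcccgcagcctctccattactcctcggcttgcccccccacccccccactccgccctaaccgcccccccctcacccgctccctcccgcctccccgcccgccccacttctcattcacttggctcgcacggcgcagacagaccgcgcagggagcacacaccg
BHLHE41, chr12:26124988-26125287, minus strand: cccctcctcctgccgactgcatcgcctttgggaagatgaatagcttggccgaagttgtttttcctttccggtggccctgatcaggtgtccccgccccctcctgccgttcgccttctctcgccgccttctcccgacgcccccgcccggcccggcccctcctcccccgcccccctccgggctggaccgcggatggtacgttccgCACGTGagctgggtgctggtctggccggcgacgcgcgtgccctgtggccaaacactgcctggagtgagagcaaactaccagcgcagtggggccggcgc
PER1, chr17:8152355-8152654, minus strand: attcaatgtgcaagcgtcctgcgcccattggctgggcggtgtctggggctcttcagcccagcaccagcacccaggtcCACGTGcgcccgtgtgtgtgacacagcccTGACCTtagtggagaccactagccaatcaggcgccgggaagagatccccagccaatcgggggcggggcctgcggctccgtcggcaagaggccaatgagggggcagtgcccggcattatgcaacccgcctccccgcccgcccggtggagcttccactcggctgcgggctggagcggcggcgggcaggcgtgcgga
PER2, chr2:238288561-238288860, minus strand: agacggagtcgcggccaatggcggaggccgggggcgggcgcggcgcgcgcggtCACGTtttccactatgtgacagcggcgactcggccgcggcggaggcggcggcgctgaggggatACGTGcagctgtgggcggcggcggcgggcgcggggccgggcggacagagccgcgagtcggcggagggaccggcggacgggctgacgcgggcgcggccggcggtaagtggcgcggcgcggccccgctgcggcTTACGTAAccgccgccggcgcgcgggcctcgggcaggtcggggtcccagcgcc
NR1D1, chr17:40100540-40100839, minus strand: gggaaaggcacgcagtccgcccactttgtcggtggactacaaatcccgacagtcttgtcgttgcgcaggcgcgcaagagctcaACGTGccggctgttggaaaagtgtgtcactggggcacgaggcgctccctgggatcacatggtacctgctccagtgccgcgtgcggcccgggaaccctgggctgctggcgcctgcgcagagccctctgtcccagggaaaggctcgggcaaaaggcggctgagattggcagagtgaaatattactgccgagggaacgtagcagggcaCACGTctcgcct
NR1D2, chr3:23945871-23946170, plus strand: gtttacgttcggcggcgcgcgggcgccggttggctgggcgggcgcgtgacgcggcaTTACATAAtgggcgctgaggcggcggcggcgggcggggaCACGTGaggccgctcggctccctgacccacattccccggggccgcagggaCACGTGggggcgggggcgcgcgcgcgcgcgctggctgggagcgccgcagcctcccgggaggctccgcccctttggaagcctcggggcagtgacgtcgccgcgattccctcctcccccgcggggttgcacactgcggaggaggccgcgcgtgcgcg

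The E-box letters stand in 4 of the 12 windows, those of BHLHE40, BHLHE41, PER1 and the second window of NR1D2, and in 7.26% of all 35116 RefSeq promoters of this length. Counted from the start, the E-box lies at -245 in BHLHE40, -173 in PER1 and -48 in BHLHE41. The core ACGTG stands in 8 of the 12 windows and in 21.4% of all promoters. The D-box letters are in the PER2 and NR1D2 windows only, against 2.18% of all promoters, and AGGTCA is in the PER1 window only, against 13.8%. The RORA and DBP windows hold none of these motifs. The single RORA window, chr15:60627481-60627780, lies inside the gene, which reaches to 61229319 at its 5′ end, so other RORA starts were not scanned. The windows shown for BHLHE40, PER1, PER2 and NR1D2 also lie inside their genes. PER1 and PER2 reach to 8156506 and 238290102 at the 5′ end, and starts there were not scanned. The E-box was scanned only as CACGTG, so a window without these letters, such as that of PER2, may hold another form of it. A match describes the letters and says nothing of binding.

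Library sums ranged from 68599412 to 213743693 estimated counts, and hypoxia replicates 1 and 2 had sums of 76384973 and 83773680, below the other hypoxia libraries at 161509752 and 195621872. CCAR2 itself, the targeted gene, was at 146 ± 3.11 CPM (counts scaled to the library sum after TMM, mean ± SD, n = 4) in WT normoxia and 57.8 ± 2.81 in the KO, so its mRNA was reduced to 0.395-fold and not lost. For its knockout cells, the paper reports sequencing of the edited sites and loss of DBC1 protein by Western blotting. In WT hypoxia CCAR2 was at 149 ± 4.95 CPM. This is mRNA only: the paper reports by Western blotting that DBC1 protein fell under hypoxia, while CCAR2 mRNA stayed the same. CA9, a known hypoxia marker, rose from 0.0649 ± 0.0232 CPM in WT normoxia to 4.90 ± 0.399 in hypoxia, with a log2 fold change of 6.21 (SE 0.22). Of the line's markers, VIM was between 4408 and 5397 CPM and KRT18, CD44, EGFR and CAV1 were between 253 and 956 CPM. ESR1, PGR, CDH1, PTPRC, CD3E and ALB had at most 69 counts in any library, whereas GATA3 was at 5.93 ± 0.615 CPM in WT normoxia. PECAM1, an endothelial marker, was at 2.56 ± 0.514 CPM in WT normoxia, 3.39 ± 0.827 in hypoxia and 5.51 ± 0.316 in the KO, and its part in the KO results was not tested.

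A gene was called changed when edgeR's quasi-likelihood test, fitted on the whole table, gave a Benjamini-Hochberg adjusted p below 0.05 and a log2 fold change of 0.5 or more in either direction, the thresholds of the study. Under hypoxia, BHLHE40, BHLHE41 and RORA rose and PER2 fell, and the other 6 members were not called. The calls upward were 3 of 10 members, against 5.83% of the 21776 genes tested, and the call downward was 1 of 10, against 1.43%. The members were chosen with earlier results of these data known, so such shares describe them and do not test the set. In the KO, BHLHE40, BHLHE41, PER1 and NR1D1 rose, 4 of 10 members against 6.73% of 21410 genes, and no member fell, against 2.94%, so that 9.67% of genes were called in either direction. By the adjusted p alone, 8 members differed under hypoxia (4 higher and 4 lower, against 23.5% of genes) and 7 in the KO (5 higher, against 14.9% of genes, and 2 lower, against 15.4%, or 30.4% in all). With each library's trend with GC content removed, 4 members passed the adjusted p alone under hypoxia (3 higher and 1 lower), those already called. In the KO 8 passed it (6 higher and 2 lower), but PER1, at 0.46, was then below the fold threshold and no longer called. The share of all genes with that trend removed is not given here. The 4 libraries of a group did not overlap with WT normoxia for 7 of 10 members in either comparison, against 26.4% of genes under hypoxia and 30.8% in the KO. The median log2 fold change of the members was -0.01 under hypoxia and 0.36 in the KO, beside 0.01 over all genes in each. The 4 WT normoxia libraries are the controls of both. Each library pools many cells, so fewer cells that express a gene and less of its RNA per cell cannot be told apart.

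**Figure D1:**
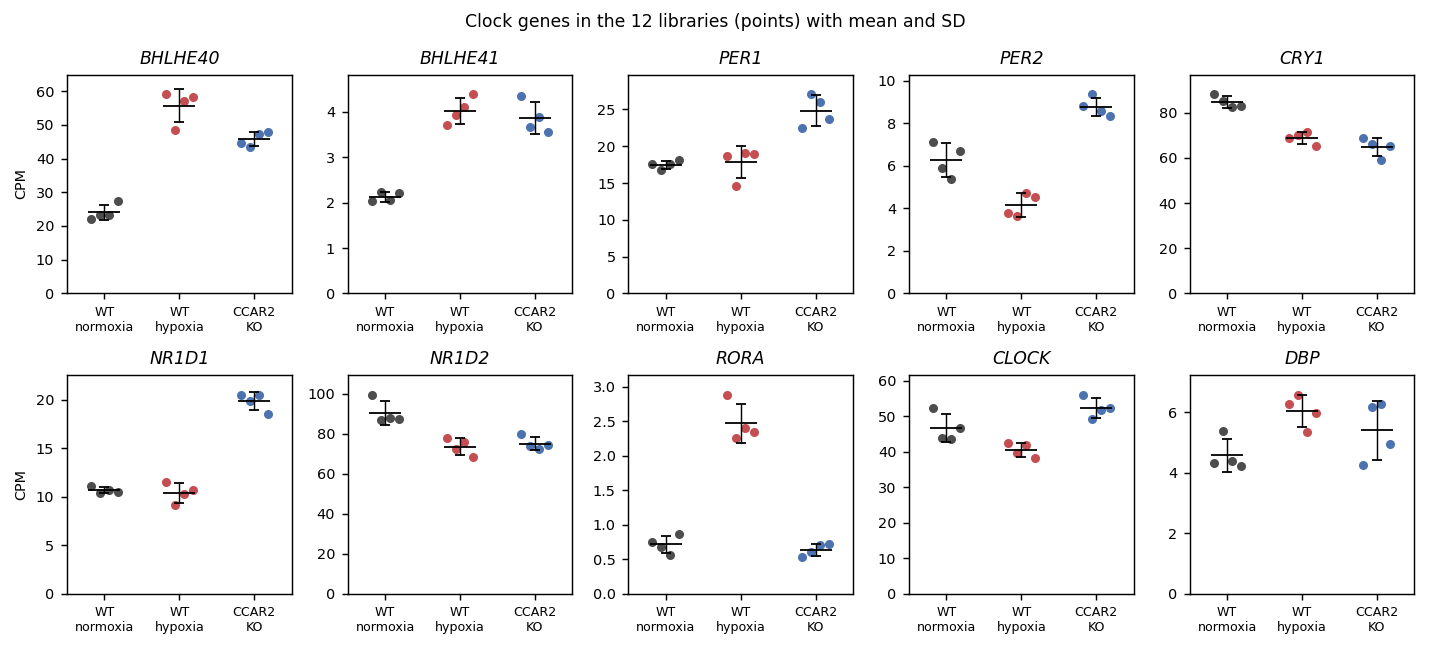
CPM of the 10 members in the 12 libraries, 1 panel per gene, with each library as a point and the group mean and SD (n = 4) as bars, on axes that start at 0. BHLHE40 and BHLHE41 are higher in hypoxia and in the KO than in WT normoxia, RORA is higher in hypoxia only of these groups, and NR1D1 lies between 18.5 and 20.5 CPM in the KO, above every WT library.

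BHLHE40 (ENSG00000134107, chr3:4979116-4985323, plus strand), an E-box repressor, rose in both comparisons. In WT normoxia its 4 libraries were at 22.0, 23.4, 23.4 and 27.3 CPM. In hypoxia they were at 59.0, 48.6, 56.9 and 58.2 CPM, and in the KO at 44.6, 43.5, 47.2 and 47.7 CPM. All 8 libraries of hypoxia and KO lay above the highest WT normoxia library. The log2 fold change was 1.21 (SE 0.08) under hypoxia, 2.31-fold, with an edgeR adjusted p of 6.99e-06, and 0.93 (SE 0.07) in the KO, 1.91-fold, with an edgeR adjusted p of 1.07e-06. The KO libraries lay below all hypoxia libraries, at a log2 difference of -0.29 (SE 0.07, edgeR adjusted p = 0.00583), which is short of the fold threshold.

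BHLHE41 (ENSG00000123095, chr12:26120026-26125127, minus strand), the paralog of BHLHE40 with the same role, was 11.2 times less counted than BHLHE40 in WT normoxia and moved the same way. Its libraries were at 2.03, 2.24, 2.05 and 2.21 CPM in WT normoxia. They were at 3.70, 3.93, 4.10 and 4.39 CPM in hypoxia and at 4.34, 3.67, 3.88 and 3.56 CPM in the KO. No library of either group overlapped with WT normoxia. The rise was 0.91 (SE 0.11, edgeR adjusted p = 2.50e-04) on the log2 scale under hypoxia and 0.86 (SE 0.11, edgeR adjusted p = 8.30e-05) in the KO. Between KO and hypoxia the groups overlapped, with a log2 difference of -0.07 and a 95% interval from -0.28 to 0.15 (1.96 SE each side). SSPN, on the other strand, shares 4.1% of the exon bases of BHLHE41 and had 35 to 136 counts in a library.

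PER1 (ENSG00000179094, chr17:8140472-8156506, minus strand), whose protein with CRY closes the feedback loop, rose in the KO and not under hypoxia. It was at 17.6, 16.8, 17.6 and 18.1 CPM in WT normoxia and at 18.7, 14.6, 19.1 and 18.9 CPM in hypoxia. In the KO it was at 22.4, 27.0, 26.0 and 23.7 CPM, above every WT library. The KO change was 0.50 (SE 0.07, edgeR adjusted p = 1.39e-04), 1.42-fold, which stands at the fold threshold. It fell below that threshold, at 0.46 to 0.50, in 9 of the alternatives, among them those without WT normoxia replicate 2 (0.47) or 3 (0.49) and without KO replicate 2 (0.46) or 3 (0.48). With the replicate block it was 0.4989 and not called, and with the GC trend removed it was 0.46 and not called. Under hypoxia the log2 fold change was 0.02, with a 95% interval from -0.15 to 0.19.

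PER2 (ENSG00000132326, chr2:238244038-238290102, minus strand) was lower than WT normoxia in hypoxia and higher in the KO. In WT normoxia it was at 7.14, 5.90, 5.38 and 6.71 CPM. In hypoxia it was at 3.77, 3.62, 4.73 and 4.52 CPM, below every WT normoxia library, and in the KO at 8.80, 9.35, 8.56 and 8.35 CPM, above every one. The hypoxia change was -0.60 (SE 0.13, edgeR adjusted p = 0.00593), 0.660-fold. The lower values in hypoxia were those of replicates 1 and 2, which also had the lower sums, and without this pair the change was -0.45 (edgeR adjusted p = 0.0365) and no longer called. The KO change was 0.48 (SE 0.10, edgeR adjusted p = 0.00262), short of the fold threshold, and it passed that threshold without WT normoxia replicate 1 (0.54) or 4 (0.51). The difference between KO and hypoxia was 1.07 (SE 0.11, edgeR adjusted p = 2.55e-05), 2.09-fold.

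CRY1 (ENSG00000008405, chr12:106991364-107093829, minus strand), the partner repressor of PER, was lower in both groups by less than the fold threshold. Its libraries were at 88.1, 85.0, 82.7 and 82.9 CPM in WT normoxia. They were at 68.8, 69.99, 71.6 and 65.1 CPM in hypoxia and at 68.95, 65.9, 59.2 and 65.2 CPM in the KO. All 8 lay below the lowest WT normoxia library. The log2 fold change was -0.31 (SE 0.05, edgeR adjusted p = 0.00153) under hypoxia and -0.39 (SE 0.05, edgeR adjusted p = 9.29e-05) in the KO. Removal of each library's trend with GC content brought the hypoxia value to -0.13 (edgeR adjusted p = 0.0568) and left the KO value at -0.34.

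NR1D1 (ENSG00000126368, chr17:40092787-40100725, minus strand), the haem-binding repressor REV-ERB alpha, rose in the KO alone of the 2 comparisons with WT normoxia. It was at 11.1, 10.4, 10.7 and 10.5 CPM in WT normoxia and at 11.5, 9.11, 10.3 and 10.7 CPM in hypoxia. In the KO it was at 20.5, 19.9, 20.5 and 18.5 CPM, and no KO library overlapped with any WT library. The KO change was 0.89 (SE 0.06, edgeR adjusted p = 4.17e-07), 1.86-fold. Under hypoxia it was -0.04, with a 95% interval from -0.21 to 0.12, and -0.20 (edgeR adjusted p = 0.100) with the GC trend removed. The difference between KO and hypoxia was itself called, at 0.93 (SE 0.08, edgeR adjusted p = 6.68e-06). THRA runs on the other strand over 263 exon bases, 9.49% of the NR1D1 exons, and neither kit named for the libraries is stated to keep strand. THRA was at 34.0 CPM in WT normoxia, 28.5 in hypoxia and 34.5 in the KO, and its KO change was 0.02 (SE 0.05, edgeR adjusted p = 0.787).

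NR1D2 (ENSG00000174738, chr3:23945260-23980618, plus strand), REV-ERB beta, did not follow its paralog. It was at 99.6, 86.9, 88.0 and 87.6 CPM in WT normoxia. It was at 77.8, 72.3, 75.9 and 68.5 CPM in hypoxia and at 79.9, 73.7, 72.2 and 74.4 CPM in the KO, below the WT normoxia range in both. The log2 fold change was -0.31 (SE 0.06, edgeR adjusted p = 0.00505) under hypoxia and -0.27 (SE 0.05, edgeR adjusted p = 0.00162) in the KO, neither past the fold threshold. With the GC trend removed, the hypoxia value was -0.14 (edgeR adjusted p = 0.0695). KO and hypoxia differed by 0.02, with a 95% interval from -0.08 to 0.13.

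RORA (ENSG00000069667, chr15:60488284-61229319, minus strand), an activator at the sites that REV-ERB represses, had the highest fold change of the 10 members under hypoxia and the lowest level. It was at 0.745, 0.680, 0.565 and 0.870 CPM in WT normoxia and at 2.89, 2.25, 2.40 and 2.35 CPM in hypoxia. In the KO it was at 0.528, 0.603, 0.701 and 0.716 CPM, within or near the WT normoxia range. The libraries hold 42 to 464 counts of it, so its values carry more counting error than those of the other members. The hypoxia change was 1.78 (SE 0.17, edgeR adjusted p = 7.21e-05), 3.44-fold, and the KO value was -0.16, with a 95% interval from -0.56 to 0.23. KO against hypoxia gave -1.95 (SE 0.16, edgeR adjusted p = 4.61e-06). The antisense gene RORA-AS1 shares 3.31% of the RORA exon bases and had 0 to 31 counts.

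CLOCK (ENSG00000134852, chr4:55427903-55547138, minus strand), the activator, was not called in any comparison. It was at 52.3, 43.9, 43.6 and 46.6 CPM in WT normoxia, at 42.5, 39.6, 41.8 and 38.1 CPM in hypoxia and at 56.0, 49.3, 51.8 and 52.2 CPM in the KO. The hypoxia libraries lay just below the WT normoxia range, and the KO libraries overlapped with it. The log2 fold change was -0.21 (SE 0.07, edgeR adjusted p = 0.0457) under hypoxia and 0.17 (SE 0.06, edgeR adjusted p = 0.0613) in the KO. With the GC trend removed, the hypoxia value was -0.03 (edgeR adjusted p = 0.777) and the KO value 0.22 (edgeR adjusted p = 0.00561). KO and hypoxia differed by 0.37 (SE 0.06, edgeR adjusted p = 4.26e-04).

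DBP (ENSG00000105516, chr19:48630030-48637438, minus strand), the output activator, was also not called in any comparison. It was at 4.34, 5.39, 4.39 and 4.22 CPM in WT normoxia, at 6.28, 6.59, 5.35 and 5.99 CPM in hypoxia and at 4.25, 6.17, 6.27 and 4.94 CPM in the KO. The groups overlapped, since WT normoxia replicate 2 lay above the lowest hypoxia library. The hypoxia value was 0.39 (SE 0.11, edgeR adjusted p = 0.0260; two-sided exact permutation p = 0.0571) and the KO value 0.24 (SE 0.14, edgeR adjusted p = 0.225). With the GC trend removed, the hypoxia value was 0.25 (edgeR adjusted p = 0.149). SPHK2, on the other strand, shares 10.1% of the DBP exon bases and stood at 31.8, 35.8 and 38.9 CPM in WT normoxia, hypoxia and KO. For each member whose groups did not overlap, the two-sided exact permutation p was 0.0286, the smallest that 4 against 4 libraries can give.

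**Figure D2:**
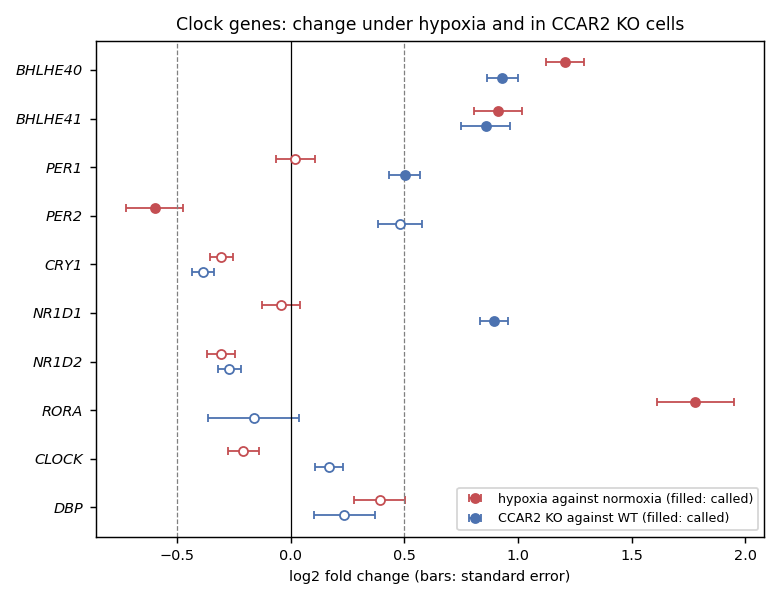
Log2 fold change of each member (points, bars are the standard error) under hypoxia and in the KO, each against WT normoxia, with dashed lines at the fold threshold of 0.5 and filled points for called genes. BHLHE40 and BHLHE41 are past 0.5 in both, RORA and PER2 only under hypoxia, and NR1D1 and PER1 only in the KO.

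Set side by side, KO and hypoxia cells differed in 6 members by the adjusted p (4 higher in the KO, against 17.1% of genes, and 2 lower, against 17.8%, or 34.9% in all), of 21158 genes tested. By the call rule they differed in 3 members, against 15% of genes, and the groups did not overlap for 6 members, against 35.9%. PER2 and NR1D1 were called higher in the KO, 2 of 10 against 7.08% of genes, and RORA lower, 1 of 10 against 7.88%. This comparison is also the test of whether the hypoxia and KO effects of a gene differ. Values for BHLHE41, CRY1, NR1D2 and DBP did not pass the adjusted p. Their intervals, within -0.44 and 0.15 on the log2 scale, allow differences of that size or somewhat larger. With the GC trend removed, CRY1 was lower in the KO than in hypoxia at -0.20 (edgeR adjusted p = 0.00383). PER1 was higher in the KO than in hypoxia at 0.47 (SE 0.09, edgeR adjusted p = 0.00234), just short of the fold threshold, and it passed without hypoxia replicate 3 (0.51) or KO replicate 1 (0.52), without hypoxia replicates 3 and 4 together (0.58) and with the GC trend removed (0.62, edgeR adjusted p = 1.10e-04).

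Among themselves, the members spanned a wide range of levels per exon length (CPM divided by the kilobases of merged exons). Merged exons join all annotated transcripts, 17040 bases for RORA and 6544 for DBP, and can exceed the mRNA made in these cells. Genes with long merged exons may therefore stand too low in this order. In WT normoxia CRY1 and NR1D2 led at 16.7 and 15.6 CPM per kb and their libraries overlapped. BHLHE40 followed at 6.26, then CLOCK at 3.96 and NR1D1 at 3.85, which overlapped, then PER1 at 2.499. PER2 at 0.914 and DBP at 0.700 overlapped, BHLHE41 was at 0.540 and RORA was last at 0.0420. In hypoxia BHLHE40 stood at 14.5 CPM per kb, in one overlapping range with CRY1 at 13.6 and NR1D2 at 12.7. In the KO NR1D1, at 7.16 CPM per kb, stood above CLOCK at 4.45 with no overlap. RORA was last in all 3 groups.

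Ratios of 2 genes within a library do not depend on its scaling and are given as a description. The ratio of NR1D1 to NR1D2 counts was 0.111 to 0.121 in WT normoxia, 0.126 to 0.156 in hypoxia and 0.249 to 0.284 in the KO. No library of the 3 groups overlapped in this ratio of the REV-ERB paralogs. A count ratio still carries each library's trend with GC content. With that trend removed, the hypoxia log2 fold changes were -0.20 for NR1D1 and -0.14 for NR1D2, so the hypoxia shift of the ratio depends on it. The ratio of RORA to NR1D1, an activator and a repressor of the same sites, was 0.0529 to 0.0825 in WT normoxia, 0.219 to 0.250 in hypoxia and 0.0258 to 0.0386 in the KO. Hypoxia and KO thus lay on opposite sides of WT normoxia, at differences of 1.84 and -1.05 from it in mean log2 ratio. Different genes made these shifts: only RORA was called under hypoxia and only NR1D1 in the KO.

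The PER1 to PER2 ratio was 2.46 to 3.26 in WT normoxia and 2.55 to 3.04 in the KO, which overlap, and 4.04 to 4.97 in hypoxia. CRY1 to CRY2 was 7.06 to 7.76 in WT normoxia, 7.12 to 9.51 in hypoxia and 3.54 to 5.10 in the KO. CLOCK to NPAS2, its paralog, was 1.90 to 2.32 in WT normoxia, 1.58 to 1.91 in hypoxia and 0.968 to 1.11 in the KO. In the KO the minor partner, CRY2 or NPAS2, thus took more of its pair than in any WT library.

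The other genes of the clock were read from 2 lists, also chosen with earlier results of these data known. The machinery list held 23 genes found in the table, of which 22 were tested in each comparison. Under hypoxia 1 was called higher, against 5.83% of all genes tested, and 1 lower, against 1.43%. By the adjusted p alone 4 were higher, against 11.6%, and 10 lower, against 12%, and the list's median log2 fold change was -0.19, beside 0.01 over all genes. Among the members, removal of the GC trend left 1 gene lower under hypoxia by the adjusted p. The list's adjusted-p counts and median with that trend removed are not given here, so its downward shift may depend on GC content. In the KO 2 were called higher, against 6.73% of genes, and 2 lower, against 2.94%, with a median of 0.00214 beside 0.01. CIART (CHRONO), a repressor of CLOCK and BMAL1, rose under hypoxia from 1.09 ± 0.239 to 2.16 ± 0.391 CPM (SD, n = 4), at 0.99 (SE 0.19, edgeR adjusted p = 0.00420). In the KO CIART was at 1.62 ± 0.292 CPM, a log2 change of 0.57 (SE 0.19, edgeR adjusted p = 0.0384) whose libraries overlapped with WT normoxia and which was not called in 8 of 17 alternatives, those without WT normoxia replicate 1, 2 or 3 or KO replicate 2, 3 or 4 among them (range over the alternatives 0.45 to 0.73).

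PER3, the remaining period gene, went the way of PER2: 19.5 ± 1.12 CPM in WT normoxia, 13.7 ± 1.502 in hypoxia and 26.2 ± 1.85 in the KO. Its hypoxia change was -0.51 (SE 0.08, edgeR adjusted p = 0.00163), which was not called in 8 of 19 alternatives (range -0.61 to -0.41). Among these were limma-voom, removal of the GC trend and leaving out hypoxia replicates 1 and 2 together. Others were those without WT normoxia replicate 1 or 4 or hypoxia replicate 2. Its KO change was 0.42 (SE 0.07, edgeR adjusted p = 4.12e-04), short of the fold threshold. CRY2 was lower in hypoxia, at 8.46 ± 1.32 CPM against 11.7 ± 0.629 in WT normoxia, and higher in the KO, at 14.9 ± 1.56, and neither difference reached the fold threshold. Between KO and hypoxia both were called, PER3 at 0.92 (SE 0.09, edgeR adjusted p = 1.00e-05) and CRY2 at 0.81 (SE 0.12, edgeR adjusted p = 3.01e-04).

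NPAS2, which can stand in for CLOCK, rose in the KO to 50.3 ± 2.32 CPM from 22.9 ± 0.997 in WT normoxia, and it was at 22.8 ± 1.52 in hypoxia. Its KO change of 1.13 (SE 0.05, edgeR adjusted p = 2.88e-08) was called in all 17 alternatives that kept the thresholds. PRKAA2, a catalytic subunit of the AMP-activated kinase that marks CRY for degradation, fell in the KO from 21.0 ± 1.63 to 13.9 ± 0.896 CPM (-0.59, SE 0.07, edgeR adjusted p = 6.27e-05). USP2, a deubiquitinase, fell in the KO by 0.93 on the log2 scale (SE 0.26, edgeR adjusted p = 0.0175), on 25 to 162 counts in a library, and was not called without WT normoxia replicate 4 (range over the alternatives -1.07 to -0.77). ARNTL, the partner of CLOCK, was at 9.53 ± 0.955 CPM in WT normoxia, 7.86 ± 0.342 in hypoxia and 11.7 ± 1.55 in the KO. It was called only between KO and hypoxia (0.57, SE 0.10, edgeR adjusted p = 0.00124). SIRT1 was at -0.05 in the KO (SE 0.06, edgeR adjusted p = 0.542) and -0.38 under hypoxia (SE 0.07, edgeR adjusted p = 0.00440), not called in either.

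The output list held 11 genes, of which 10 were tested under hypoxia and 11 in the KO. Under hypoxia none was called higher, against 5.83% of genes, and 1 lower, against 1.43%, with a median of -0.02. In the KO 4 were called higher, against 6.73%, and none lower, against 2.94%, with a median of 0.28. The median over all genes was 0.01 in each comparison. TEF, which like DBP activates at D-boxes, was at 11.4 ± 0.678 CPM in WT normoxia, fell to 7.01 ± 0.518 in hypoxia and rose to 16.9 ± 1.07 in the KO. The changes were -0.71 (SE 0.09, edgeR adjusted p = 3.02e-04) and 0.56 (SE 0.07, edgeR adjusted p = 9.08e-05), called in every alternative that kept the thresholds, and KO and hypoxia differed by 1.26 (SE 0.08, edgeR adjusted p = 7.32e-07). KLF9 (0.63, SE 0.13), TSC22D3 (0.59, SE 0.09) and CDKN1A, a cell cycle inhibitor (0.68, SE 0.05), rose in the KO. As background, KLF9 and TSC22D3 are also glucocorticoid targets and CDKN1A is a p53 target.

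Between KO and hypoxia, 4 of 22 machinery genes were called higher and 2 lower, and 3 of 10 output genes higher and none lower. Of all genes tested there, 7.08% were called higher and 7.88% lower, 15% in all. Those called higher were ARNTL, NPAS2, PER3 and CRY2, and TEF, NAMPT and TSC22D3, and those lower were PRKAA2 and USP2. NAMPT, the enzyme of the NAD salvage pathway, was at 391 CPM in hypoxia and 625 in the KO, a difference of 0.67 (SE 0.07, edgeR adjusted p = 2.41e-05). TSC22D3, at 0.59 (SE 0.12), was 0.49 and not called without hypoxia replicate 3.

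**Figure D3:**
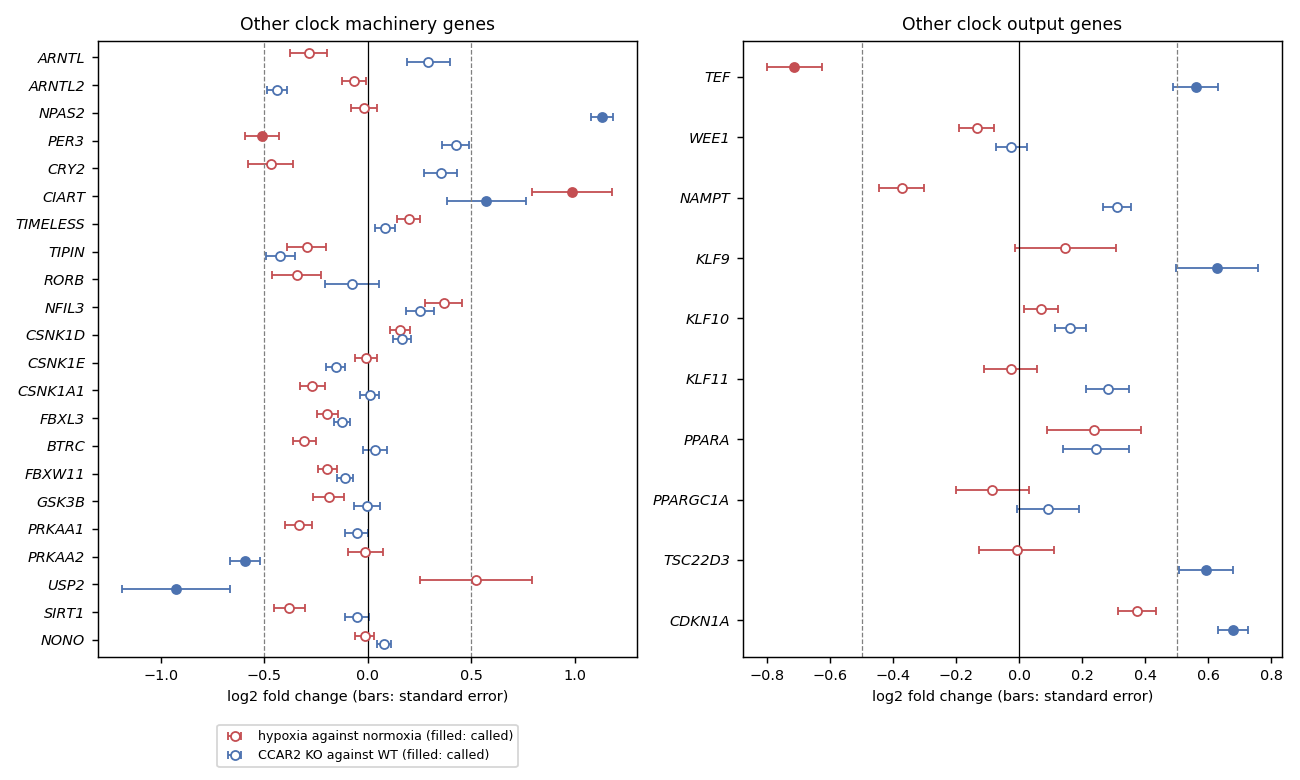
Log2 fold change (points, bars are the standard error) of 22 other clock machinery genes and 10 other output genes under hypoxia and in the KO, each against WT normoxia, with dashed lines at 0.5 and filled points for called genes. HLF, at up to 17 counts, is not drawn. PER3, CRY2 and TEF lie on opposite sides of 0 in the 2 comparisons, and NPAS2 is past 1 in the KO alone.

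Over the 12 libraries, each member's log2 CPM was set beside that of the 18289 genes with a symbol that passed the filter, and the 3 genes with the highest Pearson correlation were named, as a description over points that share their 3 groups. Those of BHLHE40 were VEGFA (r = 0.997), SLC2A1 (0.989) and SEMA4B (0.989), and those of BHLHE41 were KCND1 (0.970), SLC2A3 (0.969) and P4HB (0.967). For NR1D1 they were MAGEA3 (0.993), NPAS2 (0.991) and THBS1 (0.990), and for RORA they were EBF4 (0.990), PLAT (0.985) and RAD51D (0.982). PER2 was closest to SPECC1 (0.986), SEMA3C (0.978) and ELMO2 (0.978), and PER1 to CCDC78 (0.974), AKNA (0.961) and FGFR1 (0.961). CRY1 was closest to THAP12 (0.971), WDR3 (0.970) and TBC1D23 (0.967), and NR1D2 to KPNB1 (0.980), SMC2 (0.979) and FRMD6 (0.975). CLOCK was closest to CAPRIN1 (0.981), MAML2 (0.979) and MCFD2 (0.973), and DBP to OCEL1 (0.957), SIRT3 (0.913) and SECTM1 (0.888). By Spearman's rho the 3 closest genes held at most 1 of these for any member, so the names depend on the measure.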

How the data were processed

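The deposited table holds expected counts per gene, whole-number estimates that the authors made from reads and did not scale to library size. The methods name Hisat2 v2.2.1 and StringTie v2.1.4, whereas the submitters' processing notes name HISAT2, SAMtools and featureCounts. The genome build and annotation are not given in the sources used here. Coordinates and exon lengths are from GENCODE on GRCh38, matched by Ensembl ID. The methods and the labels name different library kits, neither stated to keep strand, so antisense overlaps cannot be separated. The methods speak of 3 or 2 biological replicates, fewer than the 4 libraries per group used here.

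All 12 libraries were grouped by their labels. For each pair of groups, genes were filtered with filterByExpr, scaled by TMM and tested in edgeR 4.0.16 (R 4.3.3) by the quasi-likelihood test, with Benjamini-Hochberg adjustment over all genes tested. The study's own test was DESeq2 with the same thresholds. Standard errors are the log2 fold change over the square root of F. CPM values use TMM-scaled library sums, log2 CPM a prior count of 2. Scripts were tested on simulated data. Intervals cover the spread between libraries only, and library sums set the precision of low genes.

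The members and gene lists were chosen with earlier results of these data known. Text names all members, each list gene called in a comparison, and the 3 genes most like each member. SPHK2, SIRT1, SSPN, RORA-AS1 and the uncalled values of ARNTL, CRY2 and PER3 were added after their values were seen. BMAL1, BMAL2 and FBXL21 were not found under those symbols, and ARNTL and ARNTL2 were used. Some list genes are not reported here and enter no list count. Same-numbered libraries did not deviate together (correlations from -0.0249 to 0.0651), so numbers pair no libraries. No pair of replicates held identical values (chi-square per degree of freedom from 12.9 to 90.5). DESeq2 1.42.0, limma-voom (limma 3.58.1), other scalings, filters and thresholds, 1 fit of all libraries, the replicate block and each library left out were tried. Removal of the GC trend and leaving out hypoxia libraries in pairs by their sums were added after seeing the data.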

Additional observations from a re-analysis of the deposited data

Results flagged for a closer look

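In 78 groups of 4 libraries over 26 clock genes, 3 had a highest or lowest library whose gap to its neighbour, divided by the group's range, was above Dixon's 95% critical value, and chance gives about 3.90. PER1 in hypoxia replicate 2 was low at 14.6 CPM (gap 0.909 of the range). NR1D2 in WT normoxia replicate 1 was high at 99.6 CPM (gap 0.915), and DBP in WT normoxia replicate 2 was high at 5.39 CPM (gap 0.852).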

How the results depend on the processing

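Of 550 recomputed log2 fold changes of members, 521 kept their direction and their side of the thresholds, 10 no longer passed, 7 newly passed and 12 turned sign. With the adjusted p alone, calls under hypoxia were 8 members, 14 machinery and 3 output genes, against 23.5% of all genes tested. In the KO they were 7, 12 and 7, against 30.4%, and between KO and hypoxia 6, 12 and 6, against 34.9%. With a fold threshold of 1 on the log2 scale, calls under hypoxia were 2 members, 0 machinery and 0 output genes, and in the KO 0, 1 and 0. Between KO and hypoxia they were PER2 and RORA of the members, with 2 machinery genes and 1 output gene. The share of all genes at this fold threshold is not given here. Machinery calls under hypoxia were 1 in place of 2 with limma-voom, with upper-quartile scaling, with at least 10 counts in every library and without hypoxia replicates 1 and 2, and 1 to 2 with single libraries left out. The 12 that turned sign were of members not called. PER1 under hypoxia was -0.17 with the GC trend removed, -0.0729 without hypoxia replicates 3 and 4, and -0.0115 to 0.0981 with single libraries left out (-0.00169, -0.0115 and -0.00541 without hypoxia replicate 1, 3 and 4). NR1D1 under hypoxia was -0.20 with the GC trend removed, 0.00660 with upper-quartile scaling, and -0.0962 to 0.00827 with single libraries left out, the latter without hypoxia replicate 2. Between KO and hypoxia, BHLHE41 was 0.0222 without hypoxia replicates 3 and 4, and NR1D2 was -0.00140 with upper-quartile scaling, -0.0860 with the GC trend removed and -0.00982 to 0.0507 with single libraries left out (-0.00982 without hypoxia replicate 4 and -0.00344 without KO replicate 1). With the replicate number as a block, although the numbers pair no libraries, 4 members were called under hypoxia, 3 in the KO (PER1 was lost) and 3 between KO and hypoxia, and the KO machinery count was 3. With Spearman's rho, 1 of the 3 closest genes was shared for NR1D2 and DBP and 0 for the other 8 members. The causes were not tested. RORA and USP2, at 42 to 464 and 25 to 162 counts in a library, had the lower counts, and no test of depth was run.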
